A study of Mus musculus with 16 samples.

Results

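Collagens, the structural proteins of connective tissue, were followed in nuclear RNA of the mouse colon. A collagen gene was taken to be any protein-coding gene of the count table whose GRCm38 symbol reads Col, a number, the letter a and a number. This rule selected 44 of the 51912 genes of the table, of which 21870 are protein-coding, and each of the 44 had a count in at least 1 library. They belong to 27 collagen types. Of the 44 chains, 11 are fibrillar (types I, II, III, V, XI, XXIV and XXVII), 6 are chains of type IV, the collagen of basement membranes, and 27 belong to other types. The others comprise 9 chains of collagens that bind to fibrils without forming them (FACIT), 6 type VI chains, 4 transmembrane chains, 3 chains of the network-forming types VIII and X, the 2 multiplexins (types XV and XVIII), the anchoring fibril chain Col7a1, and the chains of types XXVI and XXVIII.

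The 4 groups were EGFP-positive (neuronal) nuclei of agonist-treated mice, EGFP-positive nuclei of control mice, EGFP-negative (non-neuronal) nuclei of agonist-treated mice and EGFP-negative nuclei of control mice, with 4 libraries each. All mice were C57BL/6, were kept free of specific pathogens and had been given the viral vector AAV9-CaMKII-EGFPKASH into a vein 5 weeks earlier. This vector places EGFP on the nuclear envelope of cells that use the CaMKII promoter, so the neuronal population is defined by that promoter and by infection, and a neuron without the tag would fall among the non-neuronal nuclei. Agonist-treated mice received 3-methylcholanthrene, an aromatic hydrocarbon and ligand of AhR, the aryl hydrocarbon receptor, which then acts as a transcription factor. Control mice received corn oil, and both were injected into the abdomen 14 hours before nuclei were prepared from the longitudinal muscle layer with its attached myenteric plexus. The labels give neither the dose nor the age of the mice. Nor is it stated if each library stands for its own mouse or for a pool of mice, so p-values measure the spread between these samples, which may be technical. Column headers in the deposited table mention AhR knockout and wild-type animals in the name of a project, which the labels leave unexplained, and groups follow the labels.

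A collagen chain repeats glycine followed by a pair of other residues, and the chains wind around each other into a stiff helix. Fibrillar collagens bundle into the cables that carry tension, type IV forms the sheet on which epithelium, muscle, vessels and nerve rest, and the remaining types coat fibrils, link cells to them or span the cell membrane. In the gut wall fibroblasts, smooth muscle cells and vessel cells are known as the main producers, and enteric ganglia lie in a basement membrane between the muscle layers.

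The repeat that defines the family is shown for the 3 chains on which the results turn. Col3a1 (ENSMUSG00000026043, GRCm38 chr1:45311538-45349706, plus strand) encodes the single chain of fibrillar type III collagen. Col27a1 (ENSMUSG00000045672, chr4:63214004-63334991, plus strand) encodes a fibrillar chain best known from cartilage. Col25a1 (ENSMUSG00000058897, chr3:130131501-130599877, plus strand) encodes a transmembrane collagen of neurons whose shed form binds amyloid in the human brain. The stretches are the first 10 repeats of the longest unbroken run in the coding sequence of the GENCODE M21 transcript models, 5′ to 3′, with the glycine codons in capitals. They start at codon 164 of Col3a1, codon 673 of Col27a1 and codon 189 of Col25a1.
Col3a1: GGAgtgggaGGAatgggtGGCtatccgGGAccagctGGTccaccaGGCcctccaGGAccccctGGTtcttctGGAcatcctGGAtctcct
Col27a1: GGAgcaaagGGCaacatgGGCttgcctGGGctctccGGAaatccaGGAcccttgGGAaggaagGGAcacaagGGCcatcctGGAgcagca
Col25a1: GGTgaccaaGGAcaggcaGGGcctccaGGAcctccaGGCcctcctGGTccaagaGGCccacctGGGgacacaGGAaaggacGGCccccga

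In these models the longest unbroken run held 344 repeats in Col3a1, 217 in Col27a1 and 40 in Col25a1. Runs of at least 10 repeats occurred in all 44 collagens and in 53 of 21681 other protein-coding genes (0.244%). By class the longest run ranged from 216 to 344 repeats in the fibrillar chains (median 338), from 39 to 66 in the type IV chains (median 43.5) and from 23 to 113 in the others (median 45). Col24a1 (216) and Col27a1 (217) had the shortest runs of the fibrillar class.

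**Figure D1:**
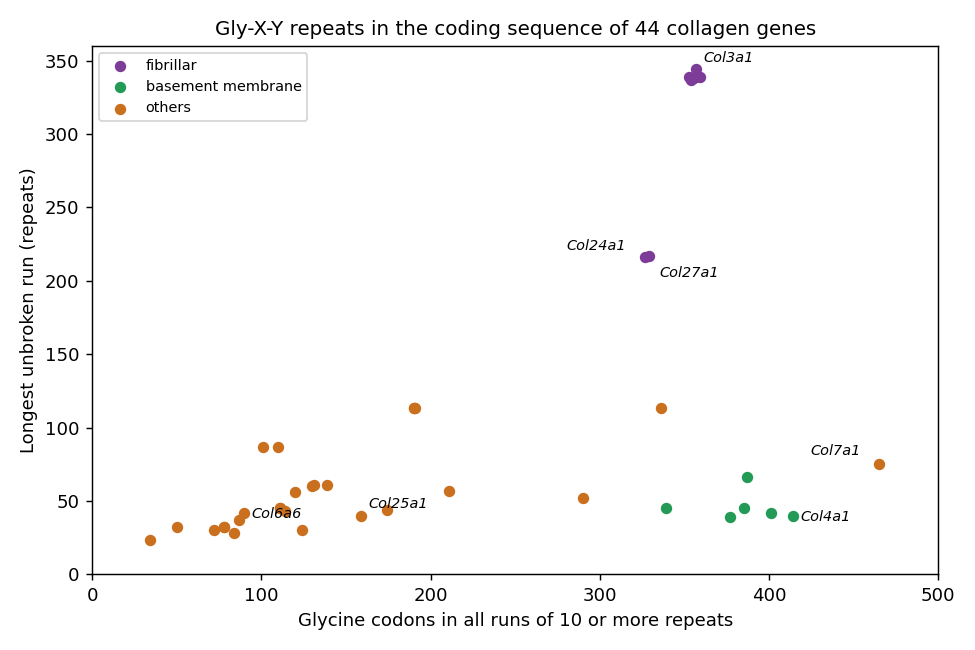
Longest unbroken glycine repeat run (y axis, repeats) against the number of glycine codons in all runs of 10 or more repeats (x axis) for the 44 collagen coding sequences, coloured by class. The fibrillar chains stand apart from the rest at 216 to 344 repeats, and no chain of the other classes exceeds 113.

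Libraries held 2663738 to 4902303 rounded counts. The counting strand is not given in the sources used here, and 13 collagens overlap exons of another annotated gene, 10 of them on the opposite strand. The same-strand or opposite-strand partners include Gm47302 for Col3a1 and 2810430I11Rik for Col5a1. Head-to-head neighbours are Col4a1 and Col4a2 (chr8:11198423-11312826, minus strand, and chr8:11312805-11449287, plus strand), which share only the short stretch chr8:11312805-11312826. Reads within a shared exon stretch may not be told apart, and their number was not examined. Levels are given as CPM, counts scaled by edgeR's TMM method to a common library size. The 8 neuronal markers summed to a median of 3704 and 3655 CPM in neuronal agonist and neuronal control libraries, against 194 and 201 CPM in non-neuronal agonist and non-neuronal control libraries. The 8 smooth muscle markers ranged over libraries from 235 to 511 CPM (neuronal agonist) and 209 to 873 CPM (neuronal control), against 2990 to 7097 CPM (non-neuronal agonist) and 3961 to 12467 CPM (non-neuronal control). The 8 fibroblast markers ranged from 7.79 to 19.1, 5.50 to 32.4, 227 to 729.8 and 126 to 648 CPM in the same order of groups, with Mfap5 at 0 in neuronal agonist libraries. Mitochondrially encoded RNA, which lies outside the nucleus, took 1.77% to 6.11% of counts in neuronal and 10.3% to 42.8% in non-neuronal libraries, above 30% in non-neuronal agonist libraries 1 and 2.

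Collagens made up a small part of the nuclear RNA. Their share of counts was 0.0809% to 0.114% with agonist and 0.0947% to 0.114% with corn oil in neuronal libraries, against 0.0386% to 0.177% and 0.0816% to 0.314% in non-neuronal ones. Their summed level in TMM-scaled CPM, with 1 scaling over all 16 libraries, was 882 ± 286 in neuronal agonist and 854 ± 90.1 in neuronal control nuclei, against 1528 ± 614 in non-neuronal agonist and 1951 ± 937 in non-neuronal control nuclei (SD, n = 4 each). In such bulk samples fewer cells of a type and less RNA per cell cannot be told apart. Fibrillar chains took 49.1% ± 15.6, 46.8% ± 3.92, 45.5% ± 5.87 and 47.1% ± 2.08 of that sum in the order of groups just given. Type IV chains took 9.56% ± 2.76 and 8.92% ± 1.31 of it in neuronal agonist and neuronal control nuclei, against 18.4% ± 5.52 and 13.1% ± 0.337 in the non-neuronal groups. Transmembrane chains, mostly Col25a1 in neuronal nuclei, took 24.4% ± 16.5 and 25.8% ± 3.98 in the neuronal groups, against 4.26% ± 2.74 and 2.01% ± 1.16 in the non-neuronal ones.

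Different chains led in each population. Per kilobase of the union of annotated exons, Col27a1 (20.96 CPM per kb), Col25a1 (13.6), Col5a2 (11.02) and Col5a3 (6.89) had the highest means in neuronal agonist nuclei. The same 4 genes led in neuronal control nuclei, at 15.5, 16.5, 9.04 and 7.32 CPM per kb in the same order. In non-neuronal agonist nuclei Col3a1 (24.2), Col4a1 (20.6), Col4a2 (15.7) and Col5a1 (12.7) led, and in non-neuronal control nuclei Col3a1 (33.1), Col4a1 (18.8), Col1a1 (17.8) and Col6a1 (15.1). These ranks depend on the annotated length, which is 6563 bases for Col1a1 and 12426 for Col1a2, with 1453 and 1372 coding codons. In non-neuronal control nuclei Col1a2 stood above Col1a1 in CPM (155 against 117) but below it per kb (12.5 against 17.8). In neuronal agonist nuclei the SD of Col27a1 was 18.1 CPM per kb, more than its distance to Col25a1, and in neuronal control nuclei Col25a1 and Col27a1 lay closer than the SD of Col27a1 (2.66), which in turn stood above Col5a2 by more than that SD. The SD of Col3a1 was 12.4 and 23.6 CPM per kb in non-neuronal agonist and non-neuronal control nuclei, more than its distance to Col4a1 in either.

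**Figure D2:**
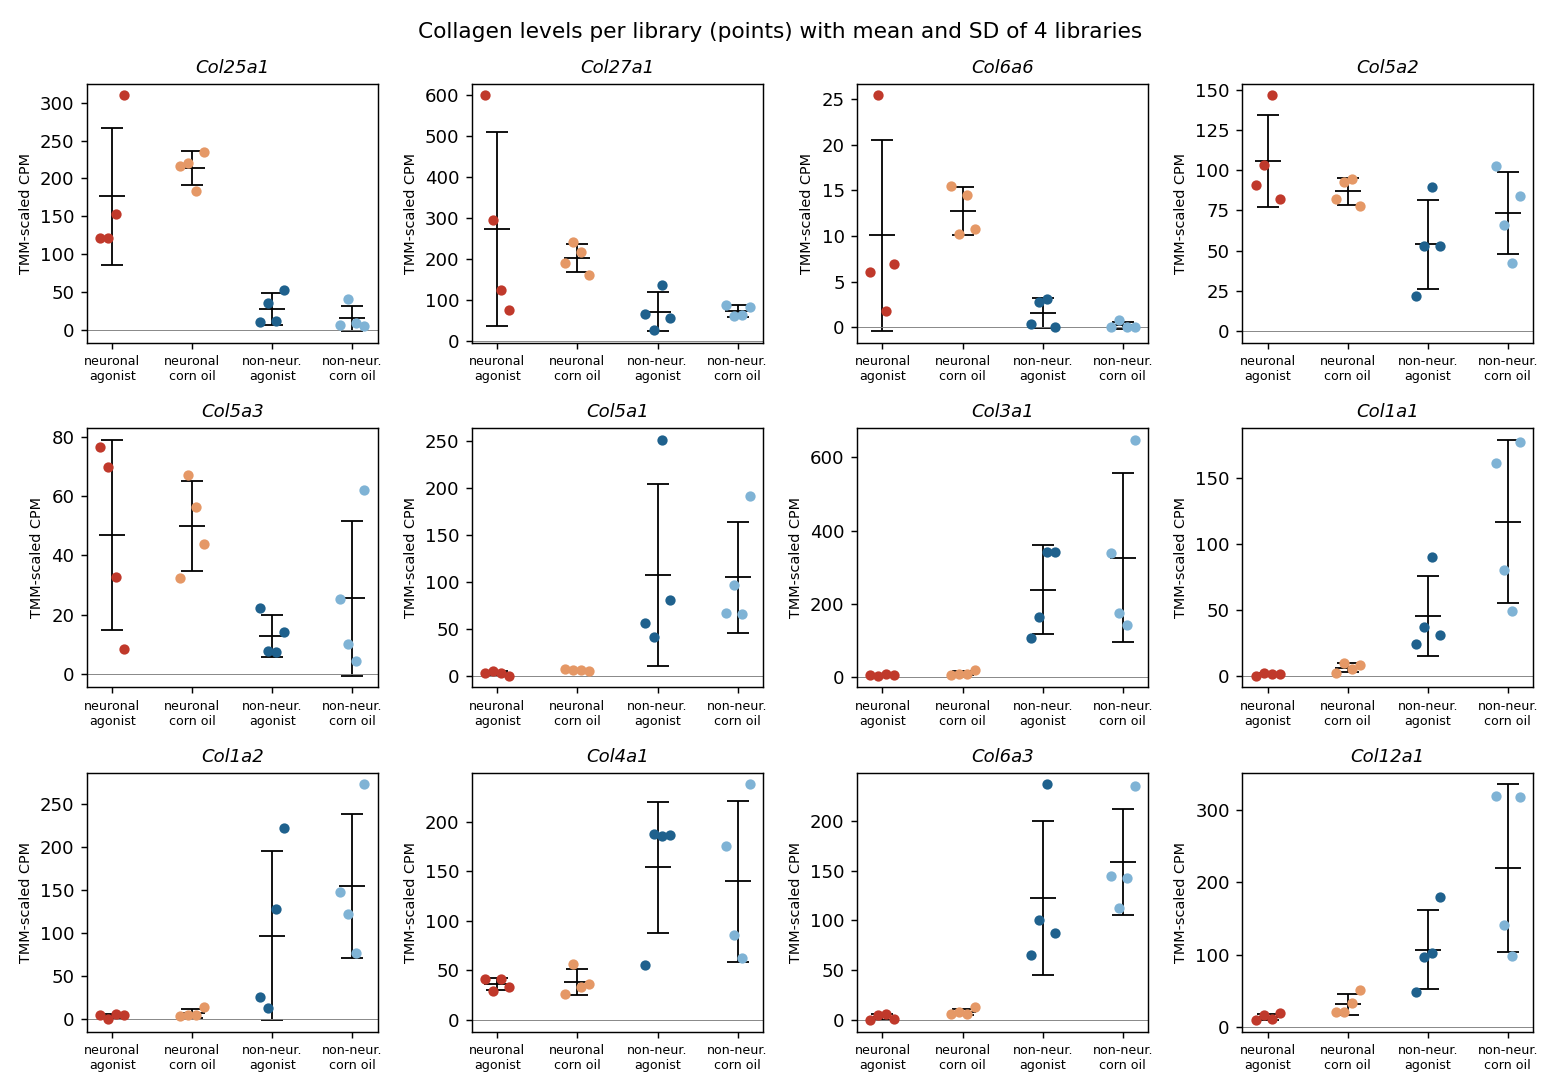
TMM-scaled CPM (y axis) of 12 collagens in each library (points), with mean and SD of the 4 libraries of a group, neuronal agonist, neuronal control, non-neuronal agonist and non-neuronal control from left to right. Col25a1 sits at 121 to 309.7 CPM in neuronal and 5.18 to 52.8 CPM in non-neuronal libraries, and Col3a1 at 3.50 to 17.5 against 106 to 648 CPM.

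Setting neuronal against non-neuronal nuclei asks which collagen transcripts mark either population. In control mice 3 collagens were higher in neuronal nuclei, Col25a1, Col27a1 and Col6a6, and 14 were lower, led by Col3a1, both type I chains, Col6a3 and Col5a1. Of the 44 collagens 30 passed the filter on low counts and were tested. Over all 15285 genes tested 25.4% were called, 11.8% higher and 13.5% lower, and 35.8% had an unadjusted p under 0.05. The median log2 fold change was -1.83 over the 30 collagens and -0.11 over all genes. Among the tested collagens groups did not overlap, higher, in 4 and, lower, in 16, against 15.1% and 15.5% of all genes tested. By class, 1 fibrillar chain was higher and 4 lower of 9 tested, 0 type IV chains were higher and 3 lower of 5, and 2 other chains were higher and 7 lower of 16. Calls rest on edgeR's quasi-likelihood test with Benjamini-Hochberg adjustment over all genes tested, at an adjusted p under 0.05, and 10 of the 17 stayed called under every alternative tried.

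In agonist-treated mice, of 28 tested collagens, 1 was called higher, Col25a1, and 7 were called lower, Col1a1, Col1a2, Col3a1, Col5a1, Col4a1, Col6a3 and Col12a1. All 8 had been called in the same direction in control mice, and the comparisons share no library. With all 16 libraries in 1 fit, 14 collagens were called in agonist-treated mice and 11 in control mice. That fit called 4590 and 2710 of all 18566 genes tested. The order of these counts thus depended on the fit, for collagens and for all genes. Over all 14065 genes tested 13.6% were called, 6.67% higher and 6.97% lower, and 25.9% had an unadjusted p under 0.05. The median log2 fold change was -1.65 over the 28 collagens and -0.15 over all genes. Among the tested collagens groups did not overlap, higher, in 1 and, lower, in 9, against 11.7% and 9.96% of all genes tested. Whether a collagen differed between populations more under one treatment than under the other is the interaction reported with the agonist response, where none passed.

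**Figure D3:**
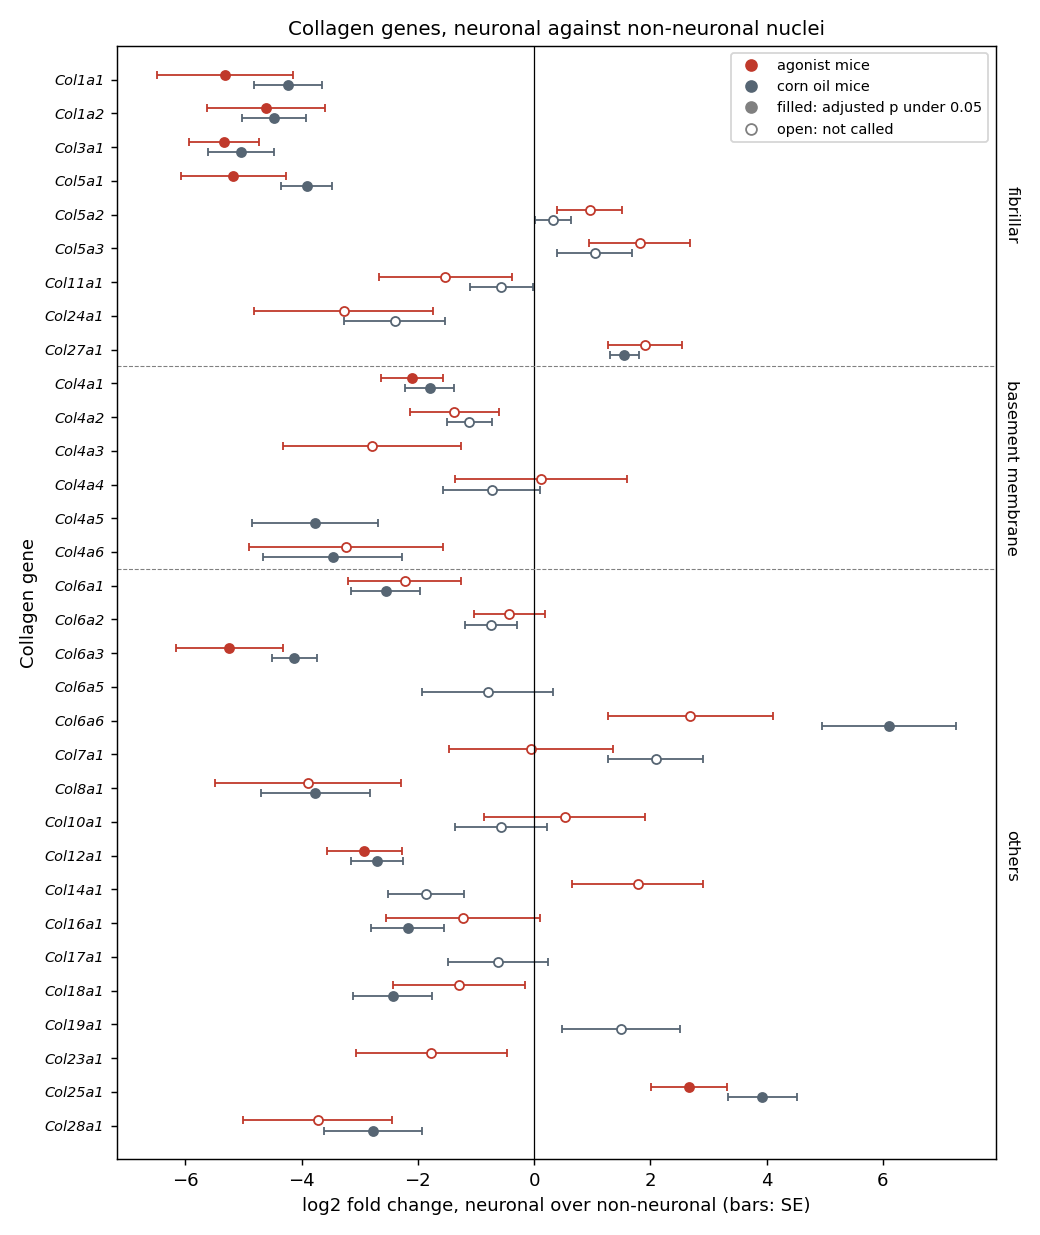
Log2 fold change of neuronal over non-neuronal nuclei (x axis, bars are SE) for each tested collagen, grouped by class, in agonist-treated mice (red) and control mice (grey), with filled points for an adjusted p under 0.05. The chains of types I and III, Col5a1 and Col6a3 lie between -5.34 and -3.91 in both treatments, while Col25a1 lies at 2.67 in agonist-treated and 3.93 in control mice.

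Among the fibrillar chains, those of the common fibrils of connective tissue were low in neuronal nuclei. Col3a1 stood at 5.55, 3.50, 8.56 and 6.11 CPM in neuronal agonist libraries 1 to 4 and at 5.24, 8.21, 6.28 and 17.5 in neuronal control libraries. Its levels were 106, 162, 342 and 340.3 CPM in non-neuronal agonist and 338, 175, 141 and 648 in non-neuronal control libraries. Every neuronal library lay far below every non-neuronal library, and non-neuronal control library 4 was the highest of all. The log2 fold change of neuronal over non-neuronal nuclei was -5.34 (SE 0.60, adjusted p = 8.45e-05) in agonist-treated and -5.04 (SE 0.57, adjusted p = 4.48e-05) in control mice. Col1a1 (ENSMUSG00000001506), the major chain of type I collagen, stood at 0, 2.19, 1.298 and 0.833 CPM in neuronal agonist and 1.57, 9.49, 4.59 and 7.84 in neuronal control libraries. It stood at 23.8, 36.6, 89.7 and 30.8 CPM in non-neuronal agonist and 161, 80.3, 49.04 and 177 in non-neuronal control libraries, again with no overlap between populations. Its log2 fold change was -5.32 (SE 1.17, adjusted p = 0.00704) with agonist and -4.23 (SE 0.58, adjusted p = 0.000188) with corn oil. Its partner chain Col1a2 (ENSMUSG00000029661) averaged 4.03 ± 2.27 and 6.55 ± 4.77 CPM in neuronal agonist and neuronal control nuclei, against 97.1 ± 98.1 and 155 ± 84.1 CPM in the non-neuronal groups (SD, n = 4 each), with log2 fold changes of -4.61 and -4.48.

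Of the chains of type V collagen, which sets the width of type I fibrils from within, only Col5a1 was called between the populations. Col5a1 (ENSMUSG00000026837), the chain found in nearly every type V molecule, stood at 2.77, 5.47, 2.85 and 0.555 CPM in neuronal agonist and 7.33, 6.93, 6.53 and 5.49 in neuronal control libraries. In non-neuronal agonist and non-neuronal control libraries it stood at 56.7, 41.5, 251 and 80.6 and at 66.9, 96.9, 65.8 and 191 CPM. All neuronal libraries lay below all non-neuronal ones, and the log2 fold change was -5.17 (SE 0.90, adjusted p = 0.00161) with agonist and -3.91 (SE 0.45, adjusted p = 4.88e-05) with corn oil. Col5a2 (ENSMUSG00000026042), which lies beside Col3a1 on chromosome 1, stood at 90.7, 103, 146 and 82.1 CPM in neuronal agonist and 81.9, 92.9, 94.5 and 77.7 in neuronal control libraries, against 21.5, 52.8, 89.2 and 52.5 in non-neuronal agonist and 102, 65.7, 42.5 and 83.6 in non-neuronal control libraries. The populations overlapped, and the log2 fold change was 0.96 (SE 0.56, adjusted p = 0.310) and 0.32 (SE 0.31, adjusted p = 0.505). Col5a3 (ENSMUSG00000004098), the less widespread chain of the type, averaged 46.9 ± 31.98 and 49.8 ± 15.1 CPM in neuronal agonist and neuronal control nuclei, against 12.9 ± 7.03 and 25.5 ± 25.95 CPM in non-neuronal ones. It did not pass either test (1.82, adjusted p = 0.202, and 1.04, adjusted p = 0.274), and without non-neuronal control library 4 its adjusted p in control mice was 0.0181 at a log2 fold change of 2.02.

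The remaining fibrillar chains were led by Col27a1. It stood at 598, 295, 124 and 75.2 CPM in neuronal agonist and 191, 241, 217 and 161 in neuronal control libraries, against 65.7, 26.2, 137 and 56.7 in non-neuronal agonist and 87.3, 60.1, 62.5 and 82.9 in non-neuronal control libraries. Corn oil libraries of the populations did not overlap, whereas neuronal agonist libraries 3 and 4 lay below non-neuronal agonist library 3. Its log2 fold change was 1.55 (SE 0.25, adjusted p = 0.000557) in control mice and 1.90 (SE 0.63, adjusted p = 0.0591) in agonist-treated mice, the second short of the threshold. Without neuronal agonist library 3, neuronal agonist library 4 or non-neuronal agonist library 3 the adjusted p in agonist-treated mice was 0.0475, 0.0270 or 0.0348. With all 16 libraries in 1 fit the adjusted p was 0.0567 in control mice, whereas Col27a1 was called in agonist-treated mice. Library size as the only scaling and the edgeR fit without a filter also called it there. In agonist-treated mice 6 of 16 alternatives called it, with adjusted p from 0.00401 to 0.231 over all 16. Col11a1 (ENSMUSG00000027966), a fibrillar chain of cartilage and other tissues, averaged 11.5 ± 9.93 and 29.5 ± 16.5 CPM in neuronal agonist and neuronal control nuclei, against 32.1 ± 31.98 and 46.5 ± 28.4 CPM, and passed neither test (adjusted p = 0.449 and 0.504). Col24a1 averaged 3.90 and 1.70 CPM in the neuronal groups, against 37.7 and 9.74 CPM, with an adjusted p of 0.194 and 0.0611. Col2a1, the chain of cartilage fibrils, had 113 counts in neuronal agonist libraries, all of them in libraries 1 and 2, 27 in neuronal control, 0 in non-neuronal agonist and 4 in non-neuronal control libraries, and was not tested. In agonist-treated mice its neuronal level was at least 30.6-fold higher against a floor of 3 counts over the non-neuronal group, a bound that covers counting error only. Without neuronal agonist library 1 the bound was 6.85-fold, in a calculation added after the values were seen that left out each library in turn. Col11a2 had 2, 7, 32 and 3 counts in the order of groups and was not tested either.

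Of 5 type IV chains tested, 1 was lower in neuronal nuclei with agonist and 3 with corn oil, beside 6.97% and 13.5% of all genes tested. The pair that makes the common network was the most abundant in every group. Col4a1 (ENSMUSG00000031502) stood at 41.3, 29.3, 41.8 and 33.02 CPM in neuronal agonist and 26.4, 56.7, 32.9 and 36.1 in neuronal control libraries, against 55.2, 188, 186 and 186 in non-neuronal agonist and 175, 85.2, 62.2 and 237 in non-neuronal control libraries. The populations did not overlap within a treatment, although non-neuronal agonist library 1 lay far below the other 3 of its group. The log2 fold change was -2.11 (SE 0.53, adjusted p = 0.0154) with agonist and -1.80 (SE 0.43, adjusted p = 0.00697) with corn oil. Without neuronal agonist library 2, or with library size as the only scaling, the call in agonist-treated mice was lost, at an adjusted p of up to 0.0998. Col4a2 (ENSMUSG00000031503), its partner, stood at 47.6, 78.2, 27.8 and 9.99 CPM in neuronal agonist and 23.3, 36.9, 38.2 and 32.9 in neuronal control libraries, against 18.9, 190.4, 144 and 63.7 and 69.2, 44.3, 55.6 and 132 in the non-neuronal agonist and control libraries. Its groups did not overlap in control mice but its log2 fold changes, -1.37 (SE 0.76, adjusted p = 0.282) and -1.11 (SE 0.39, adjusted p = 0.0546), did not pass. Without non-neuronal control library 2 the adjusted p in control mice was 0.0262.

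The minor type IV chains were scarce. Col4a5 (ENSMUSG00000031274) and Col4a6 (ENSMUSG00000031273), neighbours on the X chromosome that are found together in the basement membrane of smooth muscle, were called lower in neuronal nuclei of control mice, at -3.77 (SE 1.09, adjusted p = 0.0208) and -3.46 (SE 1.19, adjusted p = 0.0482). Col4a5 had 2 and 20 counts in neuronal agonist and neuronal control libraries, against 144 and 253 counts in the non-neuronal groups, and Col4a6 had 16 and 14 against 163 and 149. Both calls were lost with all 16 libraries in 1 fit. That of Col4a5 was also lost without neuronal control library 1 or 2 or non-neuronal control library 2. That of Col4a6 was also lost with library size as the only scaling. Without neuronal control library 2, 3 or 4 or non-neuronal control library 1 or 3 it was lost as well. The adjusted p over all alternatives reached 0.0732 for Col4a5 and 0.152 for Col4a6. In agonist-treated mice Col4a5 was not tested, its level in neuronal nuclei being 0.0113 of that in non-neuronal nuclei (95% counting interval 0.00136 to 0.0416). That ratio was 0.0302 without non-neuronal agonist library 3, which held most of the non-neuronal counts, and both neuronal counts lay in library 2, without which the level was at least 42.2-fold lower in neuronal nuclei. Col4a6 did not pass there (adjusted p = 0.243, or 0.0312 without neuronal agonist library 4, which held all of its 16 neuronal counts). Col4a3 and Col4a4, the pair known from the kidney filter, averaged 1.04 and 2.98 CPM in neuronal agonist, 0.186 and 3.74 in neuronal control, 7.16 and 2.73 in non-neuronal agonist and 4.57 and 6.56 CPM in non-neuronal control nuclei. Neither passed a test of the edgeR fit.

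Type VI collagen forms beaded filaments close to cell surfaces, built from Col6a1, Col6a2 and a further long chain, usually Col6a3. That long chain (ENSMUSG00000048126) stood at 0.252, 4.82, 6.23 and 1.39 CPM in neuronal agonist and 6.28, 8.46, 6.28 and 13.1 in neuronal control libraries, against 65.4, 100.2, 236 and 87.3 in non-neuronal agonist and 145, 112, 143 and 235 in non-neuronal control libraries. All neuronal libraries lay below all non-neuronal ones, with log2 fold changes of -5.24 (SE 0.92, adjusted p = 0.00169) and -4.13 (SE 0.38, adjusted p = 1.26e-05) in agonist-treated and control mice. Col6a2 (ENSMUSG00000020241) did not follow it, with 45.9, 44.4, 39.2 and 42.5 CPM in neuronal agonist and 27.5, 51.3, 70.3 and 45.8 in neuronal control libraries, against 43.8, 32.04, 93.1 and 60.2 and 86.1, 43.9, 50.5 and 166 in the non-neuronal agonist and control libraries. The populations overlapped and neither test passed (-0.42, adjusted p = 0.731, and -0.75, adjusted p = 0.257). Col6a1 (ENSMUSG00000001119) averaged 11.9 ± 16.9 and 10.6 ± 5.50 CPM in neuronal agonist and neuronal control nuclei, against 53.4 ± 14.5 and 65.9 ± 47.3 CPM. It was lower in control mice, -2.55 (SE 0.59, adjusted p = 0.00612), and did not pass in agonist-treated mice (-2.23, adjusted p = 0.155), where neuronal library 1 held 37.1 CPM and the other 3 held 1.298 to 5.25. Without that library the adjusted p was 0.0159 at a log2 fold change of -3.88.

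The alternative long chains of type VI, which lie together on chromosome 9 and can take the place of Col6a3, were scarce. Col6a6 (ENSMUSG00000043719) was higher in neuronal nuclei of control mice, at 6.05, 25.4, 1.82 and 6.94 CPM in neuronal agonist and 15.4, 10.3, 14.5 and 10.7 in neuronal control libraries. In non-neuronal libraries it stood at 0.378, 2.71, 3.14 and 0 CPM with agonist and 0, 0.751, 0 and 0 with corn oil. In control mice 200 neuronal counts faced 2 non-neuronal counts, 84.5 times as much (95% counting interval 23.1 to 703), or at least 45.01 times without non-neuronal control library 2, which held both of the non-neuronal counts, and the difference was called (adjusted p = 0.00161). In agonist-treated mice the populations overlapped and the test did not pass (2.69, adjusted p = 0.257). Exons of Col6a6 overlap Gm38314 on the opposite strand. Col6a4 had 0 and 10 counts in neuronal agonist and neuronal control libraries, against 3 and 111, and Col6a5 had 2 and 35, against 114 and 50. Col6a5 was tested in control mice and did not pass (adjusted p = 0.662).

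Of the transmembrane chains Col25a1 marked the neuronal nuclei. It stood at 121, 121, 153 and 309.7 CPM in neuronal agonist and 217, 220.1, 183 and 235 in neuronal control libraries, against 9.82, 35.2, 10.7 and 52.8 in non-neuronal agonist and 5.92, 40.2, 8.67 and 5.18 in non-neuronal control libraries. The lowest neuronal library lay above the highest non-neuronal library of either treatment. The log2 fold change was 2.67 (SE 0.66, adjusted p = 0.0134) with agonist and 3.93 (SE 0.60, adjusted p = 0.000363) with corn oil. Neuronal agonist library 4 was the highest of all 16, and without it the adjusted p in agonist-treated mice was 0.0617 at a log2 fold change of 2.26. Col23a1 averaged 9.14 ± 14.8 and 1.59 ± 0.515 CPM in neuronal agonist and neuronal control nuclei, against 29.4 ± 23.6 and 13.2 ± 16.1 CPM, and did not pass in agonist-treated mice (adjusted p = 0.442), while it was not tested in control mice. Col17a1, the hemidesmosome collagen of epithelium, averaged 1.19 and 2.78 CPM, against 6.84 and 4.58 CPM, and did not pass in control mice (adjusted p = 0.651). Col13a1, a collagen of the nerve-muscle junction, had 57 counts in neuronal agonist libraries, all in library 1, 0 in neuronal control, 31 in non-neuronal agonist and 20 in non-neuronal control libraries.

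Of the collagens that coat fibrils, Col12a1 was lower in neuronal nuclei with either treatment and Col16a1 with corn oil. Col12a1 (ENSMUSG00000032332), which bridges fibrils in dense connective tissue, stood at 10.3, 16.6, 10.9 and 19.1 CPM in neuronal agonist and 20.4, 21.3, 32.9 and 52.03 in neuronal control libraries, against 49.1, 96.6, 102 and 181 in non-neuronal agonist and 319.8, 142, 98.4 and 318 in non-neuronal control libraries. Within each treatment every neuronal library lay below every non-neuronal one, with log2 fold changes of -2.92 (SE 0.65, adjusted p = 0.00751) and -2.70 (SE 0.44, adjusted p = 0.000647). Col16a1 was called lower in control mice, -2.17 (SE 0.63, adjusted p = 0.0214), and Col14a1 did not pass there, -1.86 (SE 0.66, adjusted p = 0.0551), its adjusted p being 0.0307 or 0.0366 without non-neuronal control library 2 or 3. Neither passed in agonist-treated mice (-1.22, adjusted p = 0.629, and 1.78, adjusted p = 0.356). The call of Col16a1 was lost in 8 of 15 alternatives, among them with all 16 libraries in 1 fit, without any 1 of the neuronal control libraries and without non-neuronal control library 1, with an adjusted p of up to 0.175. Col19a1 did not pass in control mice (1.49, adjusted p = 0.328) and averaged 3.87 and 4.22 CPM in the neuronal groups, against 0.774 and 1.56 CPM. The type IX chains Col9a1, Col9a2 and Col9a3, Col20a1 and Col22a1 averaged at most 4.33 CPM in any group and were tested in neither comparison of populations.

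Of the multiplexins, network chains and remaining types, Col18a1, Col8a1 and Col28a1 were lower in neuronal nuclei of control mice. Col18a1 (ENSMUSG00000001435), the vessel and epithelial basement membrane collagen that releases endostatin, was lower in neuronal nuclei of control mice, -2.43 (SE 0.67, adjusted p = 0.0169), at 6.59 ± 1.99 against 37.6 ± 25.2 CPM (SD, n = 4 each), although its groups overlapped. Col15a1, its relative, had 0 counts in neuronal agonist libraries and 99 in non-neuronal agonist libraries, at least 40.6-fold lower in neuronal nuclei (23.7-fold without non-neuronal agonist library 2), and 6 against 224 counts in control mice, and it was not tested in either. Col8a1 (ENSMUSG00000068196), a network chain of vessel walls, was lower in control mice, -3.76 (SE 0.93, adjusted p = 0.00906), at 3.49 ± 3.51 against 51.2 ± 56.3 CPM. Col28a1, a collagen found around Schwann cells of peripheral nerve, was lower too, -2.76 (SE 0.84, adjusted p = 0.0276), at 2.15 ± 1.18 against 15.6 ± 12.8 CPM. In agonist-treated mice none of these passed (adjusted p = 0.537, 0.133 and 0.0705 for Col18a1, Col8a1 and Col28a1). All 3 calls were lost with all 16 libraries in 1 fit. That of Col18a1 was also lost without neuronal control library 1 or 2, that of Col8a1 without non-neuronal control library 1, and that of Col28a1 without any 1 neuronal control library or without non-neuronal control library 4. Over all alternatives their adjusted p reached 0.0898, 0.0545 and 0.101. Col7a1 (ENSMUSG00000025650), the anchoring fibril chain of skin, averaged 18.6 ± 16.7 and 6.78 ± 3.19 CPM in neuronal agonist and neuronal control nuclei, against 18.1 ± 32.2 and 1.66 ± 0.520 CPM. Its control libraries did not overlap, and it did not pass (adjusted p = 0.991 and 0.0793). Col10a1, the growth plate collagen, averaged 5.46 and 5.57 CPM in the neuronal groups, against 3.79 and 8.73 CPM, and passed neither test (adjusted p = 0.867 and 0.658), while Col8a2 and Col26a1 had at most 19 counts in a group and were not tested.

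Within types I, IV, V and VI the balance of chains was itself compared between populations, since a ratio of counts within a library does not depend on how the library is scaled. The log2 ratio of each chain to 1 chain of its type (Col1a2, Col4a1, Col5a2 or Col6a3) was taken per library with 0.5 added to each count, and population labels were permuted exactly within each treatment, two-sided, over 16 libraries. This test was added after the values were seen, covers 12 pairs and allows a smallest p of 0.000408. The levels of Col5a1 and Col6a3 had already separated all neuronal from all non-neuronal libraries, so a small p for their ratios could be foreseen. Pairs of a type share their reference chain, so the ratios describe the balance and are not separate support for the results above. The ratio of Col5a1 to Col5a2 lay between -6.89 and -3.46 in the 8 neuronal libraries, against -0.61 to 1.49 in the 8 non-neuronal ones. The difference in log2 ratio, neuronal minus non-neuronal, was -5.18 (exact permutation p = 0.000408, adjusted p = 0.00163 over 12 pairs). Col6a2 to Col6a3 lay between 1.80 and 6.93 in neuronal libraries, against -1.64 to -0.50, a difference of 4.46 with the same p. Col6a6 to Col6a3 was higher in neuronal libraries, also without overlap and with the same p. Col6a6 had 0 counts in 4 of the 8 non-neuronal libraries, where the size of the ratio is set by the 0.5 added, so no size is given. These 3 ratios separated the populations completely.

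The ratio of Col6a1 to Col6a3 differed by 2.11 (adjusted p = 0.0371, exact permutation test) with overlapping populations. Relative to Col4a1, the minor type IV chains Col4a3, Col4a5 and Col4a6 were lower in neuronal nuclei (adjusted p = 0.0371, 0.0355 and 0.0371, exact permutation test), with overlapping populations. They had 0 counts in 4, 4 and 5 of the 8 neuronal libraries, where the size of the ratio is set by the 0.5 added, so no size is given. For Col4a2 to Col4a1 the difference was 0.66 (adjusted p = 0.174), for Col5a3 to Col5a2 0.86 (adjusted p = 0.208) and for Col1a1 to Col1a2 -0.65 (adjusted p = 0.486) in the same exact permutation test, none past the threshold. Col4a4 to Col4a1 and Col6a5 to Col6a3 did not pass either (adjusted p = 0.323 and 0.208, exact permutation test).

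**Figure D4:**
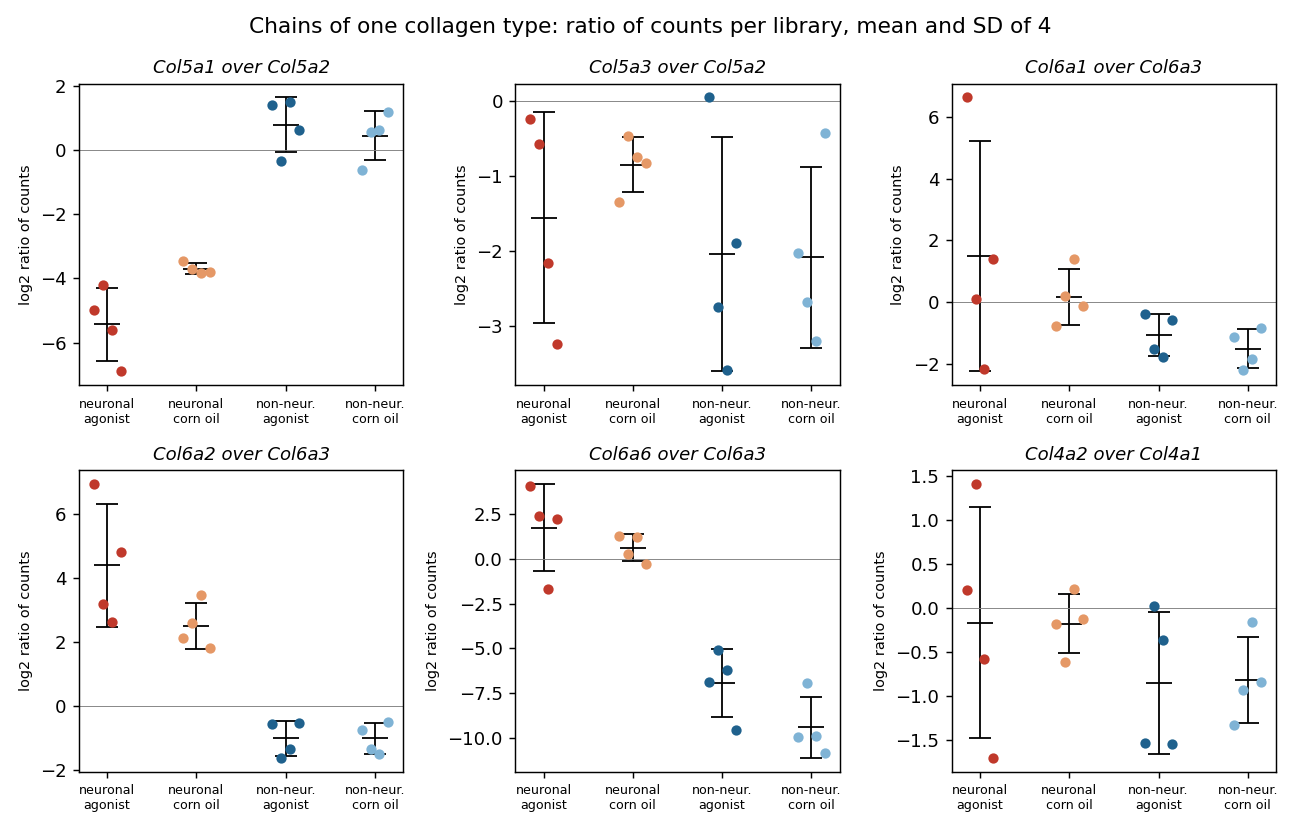
Log2 ratio of counts of 1 chain to another chain of its type (y axis) in each library (points), with mean and SD of 4 libraries, for 6 pairs, neuronal groups left of non-neuronal groups and agonist left of control. The ratios of Col5a1 to Col5a2, Col6a2 to Col6a3 and Col6a6 to Col6a3 separate the populations, and those of Col5a3 to Col5a2 and Col4a2 to Col4a1 overlap.

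Genes that make, cross-link, degrade, bind or accompany collagens were counted in lists, beside calls for 13.6% of all genes tested with agonist and 25.4% with corn oil. By direction, 6.97% and 13.5% of all genes were lower in neuronal nuclei and 6.67% and 11.8% higher. Of 15 fibril-associated proteins, 12 were lower in neuronal nuclei of agonist-treated mice (13 tested) and 13 in those of control mice (14 tested), and none was higher. Fibronectin Fn1 was at -5.22 and -4.33 in log2 fold change, and periostin Postn at -5.81 and -4.28. Dcn, Lum and Fbln1 of this list are fibroblast markers as well. Of 15 basement membrane partners, 7 were lower and 1 higher with agonist (15 tested), and 10 were lower and 2 higher with corn oil (13 tested). The heparan sulfate proteoglycan perlecan, Hspg2, stood at -4.56 and -4.51 and nidogen Nid1 at -3.29 and -3.50, while the laminin chain Lamc3 and agrin, Agrn, a proteoglycan of nerve and muscle, were the 2 higher ones in control mice (4.18 and 1.103). The median log2 fold change was -4.64 and -4.32 over the tested fibril-associated genes and -2.49 and -2.16 over the tested basement membrane partners with agonist and corn oil, beside -0.15 and -0.11 over all genes.

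Beside the same 13.6% and 25.4% of all genes called (6.97% and 13.5% lower, 6.67% and 11.8% higher), the other lists were as follows. Of 11 collagen receptors, 3 were lower with agonist (10 tested) and 5 with corn oil (8 tested), among them the integrin chains Itga1 (-5.40 and -4.92) and Itgb1 (-2.32 and -1.78). Of 20 modifying enzymes and chaperones, 2 were lower with agonist (17 tested) and 4 with corn oil (19 tested), and none was higher. In either direction these counts lay near the shares of all genes called. Serpinh1, the collagen chaperone of the endoplasmic reticulum, was at -5.003 (SE 0.71, adjusted p = 0.000221) in control mice, and P4hb, a subunit of prolyl hydroxylase, at -3.65 and -2.001. Among 14 processing and cross-linking genes 2 were higher and 0 lower with agonist (8 tested), and 1 was higher and 1 lower with corn oil (9 tested). The calls of this list with corn oil also lay near the share of all genes called. Peroxidasin Pxdn, which cross-links type IV collagen, was the gene higher in both (2.12 and 1.20). Among 16 genes of degradation 1 was higher and 2 lower with agonist (8 tested), and 1 was higher and 3 lower with corn oil (10 tested), with the inhibitor Timp4 higher (3.004 and 2.19) and the membrane collagenase Mmp14 lower in both (-5.50 with agonist).

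Summed markers of other cells also stood lower in every neuronal library than in every non-neuronal library for the 4 lists that follow. Summed markers of pericytes ranged from 28.99 to 133 CPM with agonist and 24.4 to 143 CPM with corn oil in neuronal libraries, against 277 to 1359 and 357 to 1976 CPM in non-neuronal ones. Blood endothelial markers ranged from 3.11 to 9.33 and 2.42 to 12.1 CPM in the neuronal groups, against 151 to 395 and 109 to 269 CPM in the non-neuronal agonist and control groups. Enteric glia markers ranged from 3.02 to 26.1 and 6.67 to 23.8 CPM, against 86.1 to 308 and 80.8 to 133 CPM, and epithelial markers from 3.63 to 27.6 and 12.3 to 84.8 CPM, against 1026 to 5409 and 1516 to 14345 CPM. In neuronal agonist libraries the mesothelial markers Msln, Upk3b, Wt1 and Lrrn4, the pericyte marker Kcnj8 and the endothelial marker Tie1 were all at 0. The part of these cells, and of the mitochondrial share given above, in the collagen differences was not tested.

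The agonist comparison within each population asks whether collagen RNA in nuclei differed from control mice 14 hours after injection of the agonist. In neuronal nuclei 0 of 22 tested collagens were called by edgeR, and DESeq2 called 0 as well, beside 0 of all 14182 genes tested (0%) by edgeR and 24 genes by DESeq2. At an unadjusted p under 0.05 there were 2 collagens, Col12a1 and Col14a1, against 5.01% of all genes. Col12a1 stood at 10.3, 16.6, 10.9 and 19.1 CPM in neuronal agonist and 20.4, 21.3, 32.9 and 52.03 in neuronal control libraries, without overlap (log2 fold change -1.15, SE 0.48, adjusted p = 0.903). Col14a1 stood at 25.7, 17.5, 5.19 and 9.44 CPM in neuronal agonist and 6.02, 4.10, 5.32 and 4.18 in neuronal control libraries, with overlap (1.55, SE 0.65, adjusted p = 0.903). Groups did not overlap, lower with agonist, in 3 collagens, Col5a1, Col6a3 and Col12a1, and, higher, in none, against 2.16% and 1.47% of all genes tested (3.64% in either direction). The collagens that led in neuronal nuclei had log2 fold changes of 0.44 for Col27a1 (SE 0.49), -0.28 for Col25a1 (SE 0.30), 0.28 for Col5a2 (SE 0.27) and -0.09 for Col5a3 (SE 0.55). The median over the 22 collagens was -0.11, beside 0.08 over all genes.

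In non-neuronal nuclei 0 of 30 tested collagens were called by edgeR and 0 by DESeq2, beside 2 of 14846 genes (0.0135%) by edgeR and 140 genes by DESeq2. Col1a1 alone had an unadjusted p under 0.05, against 4.82% of all genes. It stood at 23.8, 36.6, 89.7 and 30.8 CPM in non-neuronal agonist and 161, 80.3, 49.04 and 177 in non-neuronal control libraries, with overlap between the groups (log2 fold change -1.33, SE 0.58, adjusted p = 0.954). No tested collagen had groups that did not overlap, against 2.17% of all genes lower and 1.25% higher (3.42% in either direction). The leading chains Col3a1 and Col4a1 had log2 fold changes of -0.41 (SE 0.49) and 0.19 (SE 0.50). The scarce Col6a4, which the filter removed, had 3 counts in agonist and 111 in control libraries, or 0.0275 of the control level (95% counting interval 0.00559 to 0.0826). The interval covers counting error only and not the spread between libraries, and control libraries 1 to 4 held 31, 56, 17 and 7 counts. The edgeR fit without a filter on low counts called 0 collagens here. All 3 counts lay in agonist library 2, without which the level was at least 30.1-fold lower with agonist, and without control library 2 the ratio was 0.0444. The median over the 30 collagens was -0.39, beside 0.13 over all genes.

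The response to the agonist did not differ detectably between populations for any collagen. In the interaction fitted over all 16 libraries 0 of 34 tested collagens were called by edgeR and 0 by DESeq2, beside 0 of all 18566 genes (0%) by edgeR and 150 genes by DESeq2. At an unadjusted p under 0.05 there were 2 collagens, Col14a1 and Col6a5, against 7.99% of all genes. Col14a1, whose neuronal values stand above, averaged 4.15 ± 4.31 CPM in non-neuronal agonist and 18.96 ± 12.02 in non-neuronal control nuclei (SD, n = 4 each). The difference of its log2 fold changes, neuronal minus non-neuronal, was 3.73 (SE 1.304, adjusted p = 0.496), the smallest adjusted p of the 34 collagens. For Col6a5 the difference was -4.81 (SE 2.01, adjusted p = 0.572), resting on 2 and 35 counts in neuronal agonist and control libraries.

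**Figure D5:**
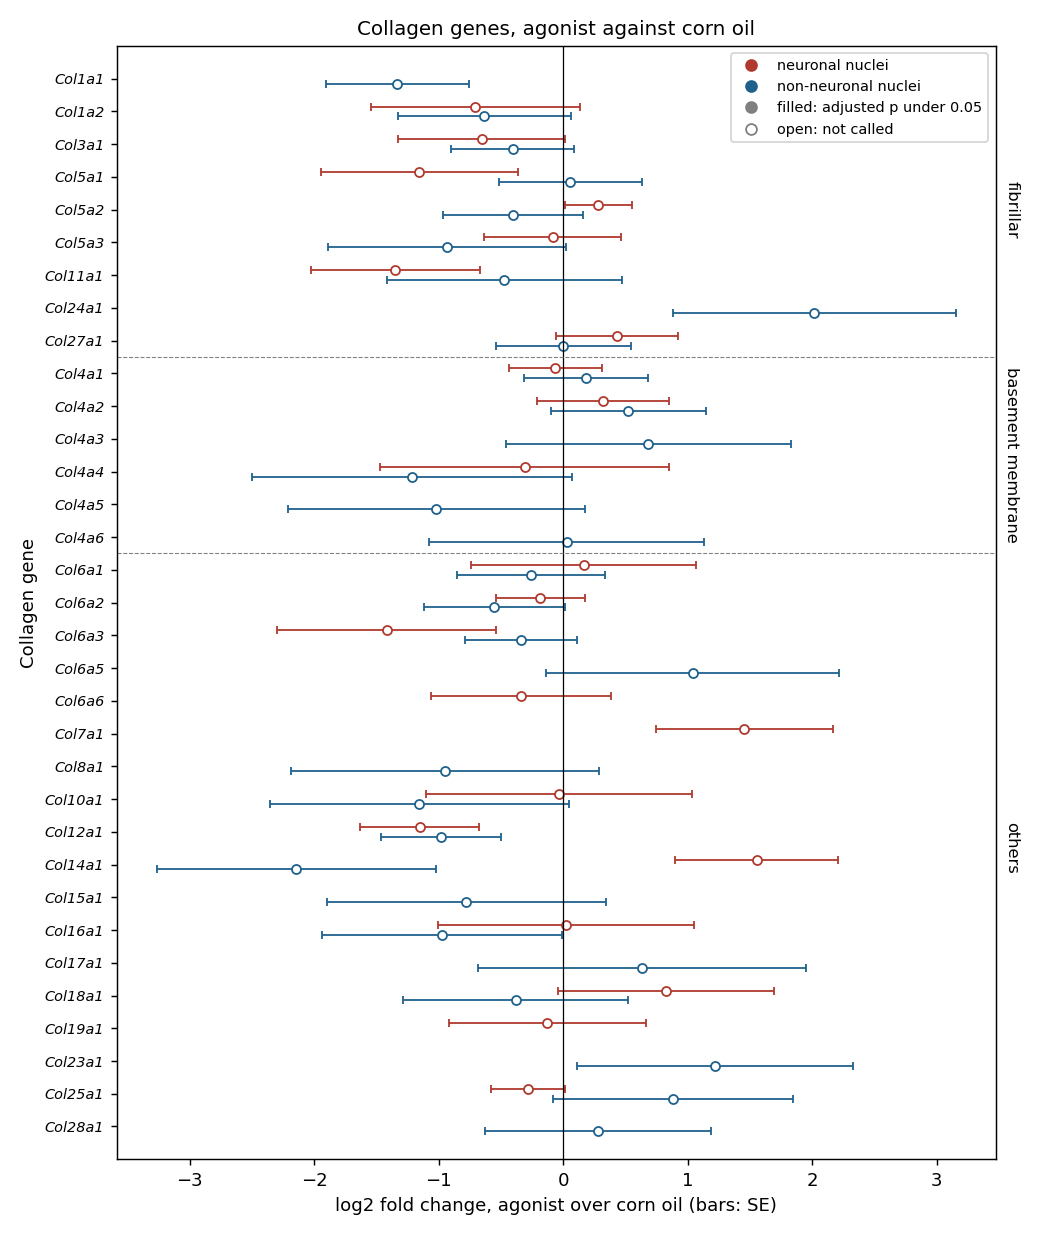
Log2 fold change of agonist over corn oil (x axis, bars are SE) for each tested collagen, grouped by class, in neuronal (red) and non-neuronal (blue) nuclei. All points are open, none having an adjusted p under 0.05, and the values lie between -2.14 and 2.02.

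Genes of the modifying, processing, degrading, receptor, basement membrane and fibril-associated lists gave 0 calls in either population or in the interaction with edgeR. The core of the AhR binding site, GCGTG, was looked for on both strands in the 300 bases around a RefSeq start (250 before and 50 after), with overlapping matches counted, in promoters of GRCm38.p6. A promoter was matched for 35 of the 44, and that nearest the annotated start of the gene was taken. Its start lay 49344 bases from the annotated one for Col25a1, 1408 for Col27a1 and 804 for Col1a2. Of the 35, 9 (25.7%) held the core, or 10 (28.6%) with the first listed promoter of each, against 8762 of 26990 first listed promoters of other genes (32.5%). A match is a string of letters and says nothing on binding. The 250 bases before the start of Col5a3, a chain with 2 cores there, and of Col3a1, which has none, are given 5′ to 3′ with the core in capitals. They lie at chr9:20815068-20815317 on the minus strand and chr1:45311288-45311537 on the plus strand.
Col5a3: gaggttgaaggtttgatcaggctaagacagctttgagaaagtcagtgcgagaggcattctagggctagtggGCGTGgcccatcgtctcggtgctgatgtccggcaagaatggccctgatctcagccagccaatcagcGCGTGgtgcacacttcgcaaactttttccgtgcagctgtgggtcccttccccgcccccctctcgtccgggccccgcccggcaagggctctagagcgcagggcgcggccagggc
Col3a1: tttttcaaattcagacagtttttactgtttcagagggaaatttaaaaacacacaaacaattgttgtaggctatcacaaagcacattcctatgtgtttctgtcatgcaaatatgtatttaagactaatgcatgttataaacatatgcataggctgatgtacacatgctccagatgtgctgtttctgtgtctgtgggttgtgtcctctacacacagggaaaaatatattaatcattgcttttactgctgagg

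The log2 fold changes with agonist of these chains were -0.09 (SE 0.55) for Col5a3 and -0.65 (SE 0.67) for Col3a1 in neuronal nuclei, and -0.94 (SE 0.96) and -0.41 (SE 0.49) in non-neuronal nuclei, none of them past the threshold.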

How the data were processed

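Nuclear RNA of sorted colonic nuclei was sequenced as 75 bp single-end reads, per the labels. The deposited table holds expected counts per gene and library, which the authors made with RSEM; it is not scaled to library size. Per the submitters' processing notes, RSEM 1.3.0, STAR 2.5.2, DESeq2 1.10.1 and the build GRCm38 were used; the annotation release is not given in the sources used here, nor is the strand setting. Chains were named through GENCODE M21 by Ensembl identifier (symbols for 51719 of 51912 genes).

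Expected counts were rounded to whole numbers and fitted in edgeR 4.0.16 (R 4.3.3) with TMM scaling, filterByExpr by group (minimum count 10, total 15) and the two-sided robust quasi-likelihood F-test, 8 libraries per comparison and 16 for the interaction, with Benjamini-Hochberg adjustment over all genes tested. The SE is the log2 fold change divided by the square root of F. Levels are CPM with 1 TMM scaling over 16 libraries, and CPM per kb uses the union of exons. Counting intervals and floors (3 counts over a group) cover counting error only. The edgeR fit was tried on simulated counts for the population comparison with agonist and for the interaction only. Every gene had the same simulated spread around its mean, so the uneven spread of these libraries was not covered. The alternatives were DESeq2 1.42.0, its size factors in edgeR, library size only, no filter, removal of mitochondrially encoded genes, a replicate block, all 16 libraries in 1 fit, and leaving out libraries. Collagens were named where called, among the 3 highest of a class, with 100 neuronal counts in a group, or in a type with a named chain; the remaining ones were named after their values were seen, to account for all members. The members, lists and tests were chosen with earlier results of these data known.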

Additional observations from a re-analysis of the deposited data

Results flagged for a closer look

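Combinations of collagen and group with a mean of at least 1 CPM numbered 140. In 22 of them a library stood apart from the other 3 of its group. The rule used marks about 1 in 20, or 7, only where values are normally distributed. Scarce counts are not, such as the 0, 0, 0 and 16 of Col4a6 in neuronal agonist libraries. The 22 therefore cannot be read as an excess over chance. No share over all genes is given, so nothing particular to collagens was shown. In neuronal agonist libraries, Col6a1 (37.1 CPM), Col23a1 (31.3 CPM) and Col13a1 (14.4 CPM) were highest in library 1, where Col17a1 was lowest (0 CPM). Col24a1 was highest (14.01 CPM) and Col1a2 lowest (0.657 CPM) in library 2, Col4a3 was highest in library 3 (3.89 CPM), and Col25a1 (309.7 CPM) and Col4a6 (4.44 CPM) were highest in library 4. In neuronal control libraries, Col19a1 was highest in library 3 (7.01 CPM). In non-neuronal agonist libraries, Col4a1 was lowest in library 1 (55.2 CPM), while Col24a1 (124 CPM), Col7a1 (66.3 CPM), Col11a2 (14.0 CPM) and Col9a1 (5.87 CPM) were highest in library 2. Col8a1 was highest in library 3 (93.9 CPM) and Col4a6 in library 4 (28.2 CPM). In non-neuronal control libraries, Col25a1 (40.2 CPM) and Col9a1 (4.51 CPM) were highest in library 2, and Col10a1 (21.5 CPM), Col22a1 (10.6 CPM) and Col8a2 (4.14 CPM) in library 4. Libraries 1 and 2 of the non-neuronal agonist group, which hold 5 of these values, had mitochondrial shares of 42.8% and 33.3%, and the part of that share was not tested.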

How the results depend on the processing

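Of the collagens called between populations, Col1a1, Col1a2, Col3a1, Col5a1, Col6a3 and Col12a1 stayed called under every alternative with either treatment, and with corn oil Col4a1, Col6a1, Col6a6 and Col25a1 did as well. No called collagen changed direction under any alternative. With all 16 libraries in 1 fit, 14 collagens were called with agonist (8 in the separate fit) and 11 with corn oil (17). Of all genes tested, 4590 of 18566 with agonist and 2710 of 18566 with corn oil were called in that fit. The separate fits called 1918 of 14065 and 3876 of 15285 genes, and the cause was not tested. DESeq2 called 12 and 25 collagens, beside 4365 of 35415 and 6700 of 40042 genes. Its size factors in edgeR gave 8 and 19, beside 1912 of 14065 and 3889 of 15285 genes. The edgeR fit without a filter gave 11 and 17, beside 3324 of 35415 and 5531 of 40042 genes. Library size only gave 8 and 16, beside 1981 of 14065 and 3763 of 15285 genes. Omission of mitochondrially encoded genes gave 8 and 17, beside 1921 of 13990 and 3933 of 15493 genes. Without the libraries over 30% mitochondrial counts, 10 collagens were called with agonist, beside 1749 of 17204 genes. Leaving out 1 library gave 8 to 11 collagens with agonist and 13 to 19 with corn oil. Calls over all genes then numbered 1553 to 2064 with agonist and 3399 to 4735 with corn oil. In both agonist responses and the interaction every alternative gave 0 collagens. The replicate block gave 8 and 15 collagens, beside 1941 of 14065 and 3731 of 15285 genes. With corn oil the calls of Col16a1 and Col18a1 were lost. Same-numbered libraries were not treated as paired in the main fits. Their deviations correlated at -0.10 to 0.18 between agonist and control libraries of a population, and at -0.0096 to 0.074 between populations within a treatment. Not every library correlated best with its own number. Between populations, libraries 1, 3 and 4 with corn oil and libraries 1 and 4 with agonist did. Whether the numbers mark pairs was therefore not settled. Library size only moved the median log2 fold change of all genes from -0.15 to 0.43 with agonist and from -0.11 to 0.11 with corn oil. At this depth the scarce chains, such as Col9a1, Col8a2 and Col26a1, fell under the filter and were not tested in the edgeR fits that used it.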
